A study of Mus musculus with 2 samples.

Results

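Complement is a set of plasma and cell-surface proteins, many of them proteases that cleave one another in a chain, and 9 of its genes were followed here in mouse back skin after an injection of FGF18, a secreted fibroblast growth factor. The 9 genes were C1qa, C1qb, C1qc, C2, C3, C4b, Cfb, C3ar1 and C5ar1. They were found by their names in the array files, were printed as 12 probes on 21 spots per array, and stand among 27576 gene names on the array. Of the 9, 8 were well above background on both arrays, among 16610 genes that were, and C5ar1 was so on the PBS array only.

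The study asked which skin transcripts respond to local FGF18 in anagen, when hair follicles grow. All skin came from male C3H/HeN mice, an inbred strain, 61 days old, whose back hair had been removed by depilation 5 days earlier. On day 4 after depilation the FGF18 group received 1 µg of FGF18 protein under the skin and the PBS group received phosphate-buffered saline, and full-thickness back skin was taken 24 h later. The labels speak of 3 mice, leaving unclear whether each group had that many, and poly(A) RNA was pooled by group for 1 single-colour Agilent array each. The labels also differ on 2 points: the title of the PBS sample says telogen, the resting phase, where its other entries say anagen, and the extraction text speaks of mice extracted separately where the design speaks of pools. With 1 array per group there is no replicate check, no p-value is given, and every difference is one between these 2 arrays.

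Complement starts by 3 routes. In the classical route C1q, built of 3 chains, binds antibody or cell debris and switches on the proteases C1r and C1s, which cut C4 and C2; in the lectin route sugar-binding proteins do the same through MASP proteases; in the alternative route factor B, cut by factor D and steadied by properdin, joins C3b. All routes meet at C3, whose large fragment coats surfaces for uptake and whose small fragment, like that of C5, calls in and activates leukocytes through receptors on their surface. The liver makes most plasma complement, while C1q comes mainly from macrophages and dendritic cells, and skin keratinocytes and fibroblasts can make C3 and factor B themselves.

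Promoter windows of 300 bases, 250 before and 50 from the annotated start, were matched by symbol in RefSeq (build GRCm38.p6) for 5 of the 9 genes: C1qb, C1qc, C3, C3ar1 and C5ar1. C1qa, C2, C4b and Cfb were not matched. The windows of an adjacent pair of C1q genes (C1qb and C1qc), of the gene measured by the most spots (C3) and of the gene measured on the PBS array only (C5ar1) are shown, all on the minus strand and written 5′ to 3′ along the gene. C1qb lies at chr4:136886151-136886450, C1qc at chr4:136892865-136893164, C3 at chr17:57228087-57228386 and C5ar1 at chr7:16259289-16259588. Capitals mark matches, on either strand, to 5 motifs that were searched: TTCNNNGAA (a STAT site), GAAANNGAAA (the core of an interferon response element), the degenerate kappa B site, TTNCNNNAA (a loose form of the C/EBP site) and TATAAA (the TATA box).
C1qb: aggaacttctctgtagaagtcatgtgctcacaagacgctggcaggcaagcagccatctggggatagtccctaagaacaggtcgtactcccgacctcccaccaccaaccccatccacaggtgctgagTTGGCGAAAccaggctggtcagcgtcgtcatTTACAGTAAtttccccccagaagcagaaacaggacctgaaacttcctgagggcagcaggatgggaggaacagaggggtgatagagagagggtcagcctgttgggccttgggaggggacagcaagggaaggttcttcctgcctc
C1qc: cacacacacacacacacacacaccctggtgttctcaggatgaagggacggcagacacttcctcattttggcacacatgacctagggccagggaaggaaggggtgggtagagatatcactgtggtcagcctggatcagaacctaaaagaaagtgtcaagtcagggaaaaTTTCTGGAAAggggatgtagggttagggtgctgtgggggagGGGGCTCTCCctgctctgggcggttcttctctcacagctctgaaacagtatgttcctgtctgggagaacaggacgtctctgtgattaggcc
C3: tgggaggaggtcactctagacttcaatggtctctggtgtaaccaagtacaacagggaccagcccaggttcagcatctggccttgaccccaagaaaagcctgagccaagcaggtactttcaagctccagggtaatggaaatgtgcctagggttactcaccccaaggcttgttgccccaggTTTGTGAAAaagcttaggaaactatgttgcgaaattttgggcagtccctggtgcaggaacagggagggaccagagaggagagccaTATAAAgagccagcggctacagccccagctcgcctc
C5ar1: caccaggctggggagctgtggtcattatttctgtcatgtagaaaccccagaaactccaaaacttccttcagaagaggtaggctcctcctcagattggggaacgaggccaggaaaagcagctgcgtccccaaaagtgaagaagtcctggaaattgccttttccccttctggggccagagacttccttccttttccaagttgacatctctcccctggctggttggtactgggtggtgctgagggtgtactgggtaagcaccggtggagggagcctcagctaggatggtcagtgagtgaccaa

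No window of these 5 genes held the STAT motif, which 8.30% of 32851 windows in the table held, or the interferon response core, which 3.44% held. The C/EBP form was in 3 of the 5 windows, those of C1qb, C1qc and C3, and in 36.6% of all windows. In C1qb it matched at -124, on the reverse strand, and at -93, where the same 9 bases matched on both strands; in C1qc it matched on both strands at -82 and, overlapping, on the reverse strand at -81; in C3 it lay at -71. The kappa B site was in 1 of the 5, that of C1qc at -41, and in 8.46% of all windows. TATAAA was in 2 of the 5, at 15 in C3, thus within the annotated transcript, and at -235 in C3ar1, and in 13.6% of all windows. The C5ar1 window held none of the 5 motifs. A match describes letters in a window and is not a binding site.

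Values below are processed signals in arbitrary intensity units, the scanner software's background-subtracted spot brightness. They compare the arrays within a probe and not one probe with another. The 75th percentile of signal was 1020 with FGF18 and 899 with PBS, and each log2 ratio was taken after subtracting it, so that scaled ratios lie 0.18 below raw ones. Over the 16610 genes the scaled log2 ratio, FGF18 minus PBS, had a median of -0.07, quartiles of -0.23 and 0.09 and central 95% limits of -0.75 and 0.73. The skin markers were all measured (7 of 7 keratinocyte and 7 of 7 fibroblast genes on both arrays), the share of probe spots well above background was 62.4% with FGF18 and 61.5% with PBS, and 0 probe spots were saturated.

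Cfb had the largest ratio of the 8 genes measured on both arrays and was at least 2-fold higher with FGF18. C2 was higher on both its probes by less than 2-fold, and it lay, like the C1q chains, C4b, C3 and C3ar1, within the central 95% limits of all genes. Among the 8 members measured on both arrays 1 was at least 2-fold higher, where 1.54% of all genes measured on both were, and 0 were at least 2-fold lower, where 0.987% of all genes were. The median of the 8 scaled log2 ratios was 0.09, and 5 of them lay above the median of all genes. C5ar1 gave a signal well above background in the PBS pool alone.

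**Figure D1:**
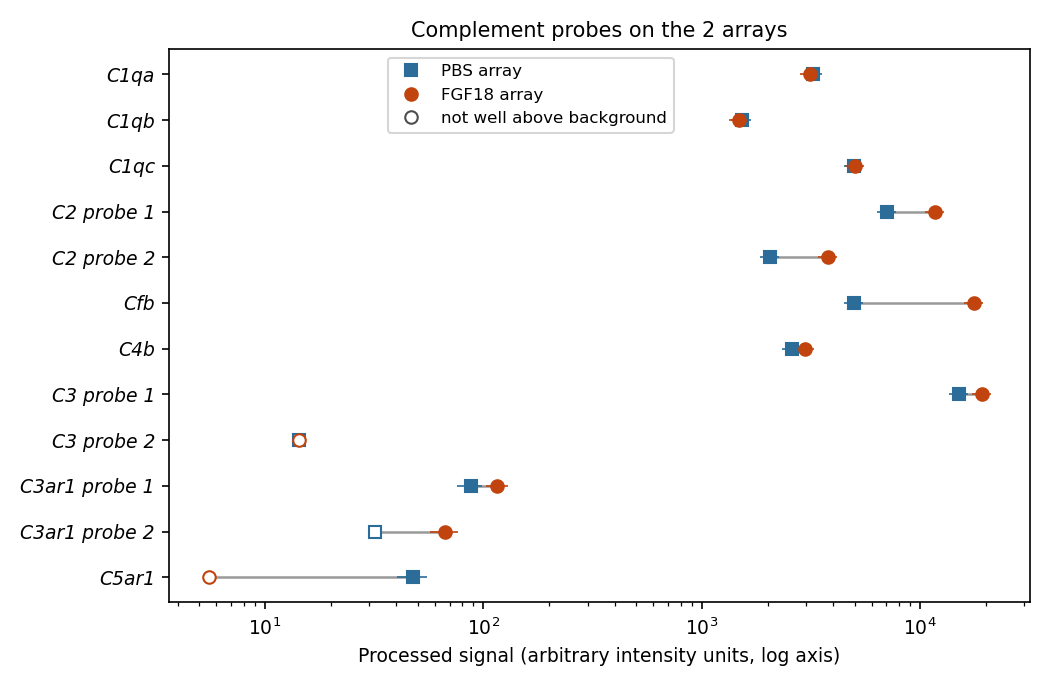
Processed signal of the 12 probes of the 9 complement genes on the FGF18 array (circles) and the PBS array (squares), in arbitrary intensity units on a log axis; open symbols are not well above background and bars are the software's own error of each signal that was. Cfb went from 4960 to 17600, whereas the C1q symbols overlie each other and C5ar1 has an open FGF18 symbol at 5.52.

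The recognition molecule differed little between the arrays. C1qa, the gene of the A chain of C1q, gave 3130 with FGF18 and 3220 with PBS, a scaled log2 ratio of -0.22 with an error of 0.20 from the software's signal errors. C1qb, the B chain, gave 1480 and 1520, also a ratio of -0.22 with an error of 0.20. C1qc, the C chain, gave 5020 and 4970, a ratio of -0.17 with an error of 0.20. The raw signals of each chain were thus close to level, and the scaled ratios were slightly below the median of all genes. Of all genes measured, 74.4%, 74.1% and 66.5% had a higher ratio than C1qa, C1qb and C1qc. The 3 genes are neighbours on chromosome 4. Their ratios differed from each other by less than the error of 0.20. That error was also 0.20 for the bright probes of C2, C3, C4b and Cfb, so it was not a spread measured for each gene.

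The proteases that complete the C3 convertases were both higher on the FGF18 array. C2, the classical and lectin route protease that joins C4b, had a probe at 11700 with FGF18 and 7060 with PBS, a scaled log2 ratio of 0.55 and a fold of 1.46. Its second probe, 667 bases nearer the 5′ end in the chromosome coordinates of the files, gave 3790 and 2060, a ratio of 0.70 and a fold of 1.62. Both probes thus moved the same way, each with an error of 0.20, and the mean ratio of 0.62 was 1.54-fold. At a fold of 1.5, C2 and Cfb were the 2 of the 8 members past it, where 3.79% of all genes were that much higher, and 0 members were that much lower, where 4.82% were.

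Cfb, the gene of factor B, which is the alternative route's counterpart of C2, gave 17600 with FGF18 and 4960 with PBS. The raw fold was 3.55, and the scaled fold was 3.13, a log2 ratio of 1.65 with an error of 0.20. Of the 16610 genes, 108 (0.650%) had a higher ratio. Cfb was read by 1 spot, so no second probe or spot checks it. For probes with signals over 2000 that were printed at least 8 times, the SD of the log2 ratio of a spot had a median of 0.03 over 69 probes and reached 0.09, far less than the ratio of Cfb. That SD covers spotting and scanning, not differences between mice or labellings.

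Cfb and C2 lie side by side on chromosome 17. Nelfe, the next gene on the side of Cfb, codes for a subunit of the negative elongation factor and had a ratio of -0.28, and Zbtb12, a zinc finger gene next to C2, had -0.18. Among 26 measured genes, other than members, that lay within 3 coding genes of any of the 9, ratios ran from -0.36 to 1.04 with a median of 0.00. Of these 26, 1 was at least 2-fold higher, Clec4a3, a C-type lectin gene near C3ar1, where 1.54% of all genes were. At least 2-fold lower were 0 of the 26, where 0.987% of all genes were.

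**Figure D2:**
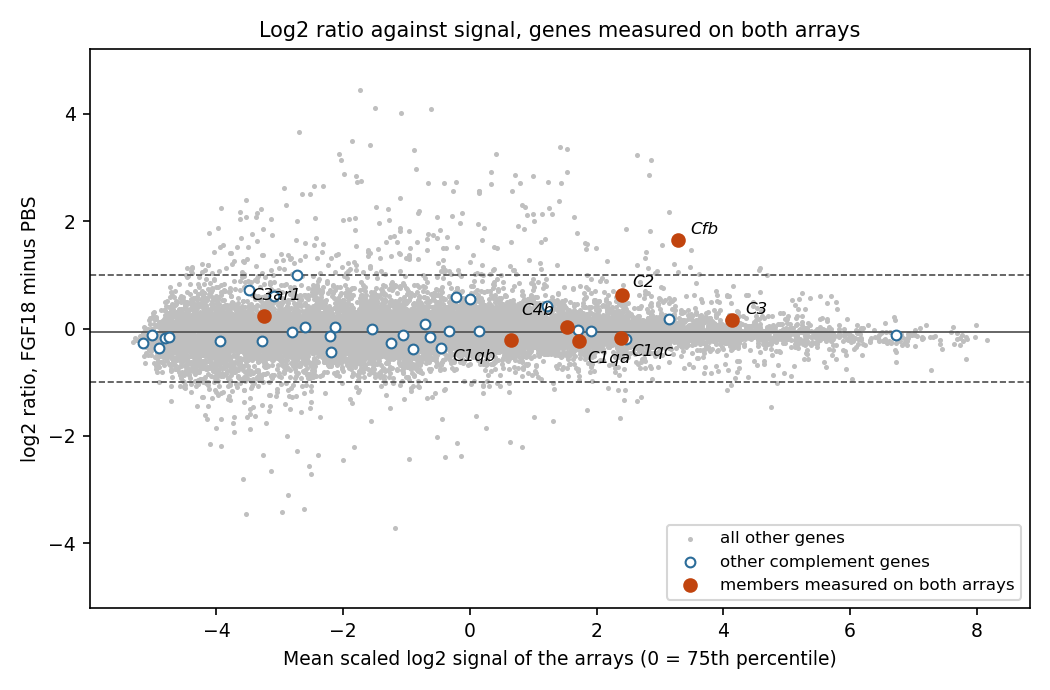
Scaled log2 ratio, FGF18 minus PBS, against the mean scaled log2 signal of the arrays for the 16610 genes measured on both; filled circles are the 8 complement members, open circles the other complement genes, the solid line is the median and the dashed lines are 2-fold. Cfb is the 1 member beyond a dashed line, and the other 7 lie between them.

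The opsonin genes C4b and C3, whose products bind covalently to surfaces, differed little between the arrays. C4b, the gene of complement C4, gave 2980 with FGF18 and 2590 with PBS, a scaled log2 ratio of 0.02 with an error of 0.20, and 34.1% of genes had a higher ratio. Its probe, like that of the near-identical C4a, lists accessions of both genes in the files, so the assignment to C4b is uncertain.

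C3, the component on which all routes converge, had a probe printed as 10 spots. On the FGF18 array its lowest spot was 17700, the median 19000 and the highest 20300, and on the PBS array they were 13700, 15050 and 15700. The spots of the arrays did not overlap, but they are repeats of the same pair of RNA pools and not of the treatment. After scaling, 10 of 10 spots were higher with FGF18, at a mean log2 ratio of 0.16, an SD between spots of 0.03 and a fold of 1.12. The difference was larger than the spread between spots and exceeded by 18.1% of all genes. It was smaller than the software's error of 0.20, which bright probes share and which was not measured on these spots. A second C3 probe lay 21220 bases nearer the 5′ end, counted along the chromosome and not along the transcript. It gave 14.3 on each array and was not well above background, so it carries no ratio.

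The anaphylatoxin receptors, which bind the small fragments of C3 and C5 on myeloid cells, were read by dim probes, near the floor of what the arrays measure. C3ar1, the C3a receptor, gave 116 with FGF18 and 87.4 with PBS, a scaled log2 ratio of 0.23 with an error of 0.26. Its second probe, 474 bases nearer the 5′ end along the chromosome, gave 66.7 with FGF18 and 31.9 with PBS, the latter not well above background. Set against that dim value, whose error was 7.56, the second probe was 1.84-fold higher on the FGF18 array. That fold is a ratio to a dim signal and not a lower limit. The C3ar1 probes thus had the same sign, and the ratio of the first was smaller than its error.

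C5ar1, the C5a receptor, gave 47.6 with PBS and 5.52 with FGF18, the latter not well above background. The dim value is replaced by the floor, the lowest signal of a probe well above background on that array (23.3 with FGF18, 24.2 with PBS). Against it, C5ar1 was lower with FGF18 by at least 2.32-fold if the PBS signal is taken as exact. That signal came from 1 spot with an error of 7.35. The floor is not a detection limit for each probe, since C7, another complement gene, gave 25.5 with FGF18 without being well above background. Of the 402 genes measured on the PBS array only, 154 (38.3%) had such a bound of at least 2-fold, so C5ar1 is 1 of many dim probes with that pattern. Probes under 200 that were printed at least 8 times had a median SD of 0.16 and a highest SD of 0.71 in the log2 ratio of a spot, over 34 probes. C5ar2, its neighbour on chromosome 7 and a second C5a receptor, gave 30.0 and 34.0, a ratio of -0.36 with an error of 0.37.

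The wider complement system was read from a list of 59 genes that holds the 9. The array named 57 of them (C1rb and Cfhr3 had no probe by name), 40 were measured on both arrays, 1 with FGF18 only, 2 with PBS only, 1 by probes that disagreed, and 13 were not well above background on either. Of the 40, 1 was at least 2-fold higher, Cfb, where 1.54% of all genes measured on both were. At least 2-fold lower were 0 of the 40, where 0.987% of all genes were. The median log2 ratio of the 40 was -0.05. Without the 9 members, 32 genes were measured on both arrays, 0 were past 2-fold in either direction, and the median was -0.08, against -0.07 over all genes.

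The C1 proteases, which C1q activates, had ratios above 0. C1s2, of the C1s pair, gave 147 with FGF18 and 85.1 with PBS, a log2 ratio of 0.61 and the highest of its role. With normexp background correction it fell to 0.30, below C1ra at 0.46 and C1s1 at 0.38. C1ra had ratios of 0.82 and 0.27 by its 2 probes and C1s1 had 0.53 and 0.32; both were chosen after their values were seen. C1ra and C1rb, and C1s1 and C1s2, are near-identical gene pairs whose signals an array may not tell apart. Masp1, a lectin route protease, had the lowest ratio of the role at -0.44 over 2 probes. These gave -0.63 at signals of 39.4 and 53.6 and -0.25 at 934 and 981. Another Masp1 probe was seen with FGF18 only, at 50.4 against 26.0. Set against that dim value it was 1.71-fold higher, which is not a lower limit. Mbl1, Mbl2, Fcnb and Colec10, all lectin route recognition genes, were not well above background.

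The partners of factor B had ratios just below 0. Cfd, the gene of factor D, gave 104000 with FGF18 and 99900 with PBS, a ratio of -0.12. Cfp, the gene of properdin, gave 5280 and 5320, a ratio of -0.19. C4a, the mouse paralogue of C4b known as sex-limited protein, was seen with FGF18 only, at 35.9 against 10.6. It was at least 1.31-fold higher if the FGF18 signal, whose error was 7.66, is taken as exact. Of the 610 genes measured on the FGF18 array only, 20.8% had a bound of 2-fold or more.

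The terminal components, which build the membrane attack complex, were sparse. Hc, the gene of C5, gave 26.1 and 27.6 on the FGF18 and PBS arrays, a ratio of -0.26 that is within its error of 0.44, and C6 gave 143 and 131, a ratio of -0.06. C7 was measured on the PBS array only, at 39.7 against 25.5. Set against that dim value it was 1.77-fold lower with FGF18, which is not a lower limit. C8a, C8b and C9 were not well above background on either array.

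Regulators that hold complement in check had median ratios of -0.16 for the soluble and -0.11 for the membrane genes, against -0.07 over all genes. Of the 7 soluble regulators measured on both arrays, Serping1, the C1 inhibitor, was the highest, at 9570 with FGF18, 7480 with PBS and a ratio of 0.17. The 5 membrane regulators measured on both arrays ran from -0.15 for Susd4 to 0.03 for Cr1l, a rodent regulator of C3 deposition. Cd55b, a decay-accelerating factor gene, had a probe at 30.3 and 28.9 and another at 83.5 with PBS and 5.79, not well above background, with FGF18, so its probes disagree. Cd59b, a gene of an inhibitor of the membrane attack complex, had 1 probe measured on each array alone, with opposite signs.

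The receptors for C3 fragments had ratios of either sign. Itgam, the alpha chain of complement receptor 3, gave 145 with FGF18 and 53.5 with PBS by one probe and 325 and 174 by the other. Its mean ratio of 0.99, a fold of 1.98, lay just under 2-fold. Itgam passed 2-fold in 6 of 13 other processing settings, and fell to 0.49 with normexp background correction and to 0.72 by its brighter probe alone. Itgb2, the beta chain of that receptor, gave 1080 and 632, a ratio of 0.59, and Vsig4, a macrophage receptor for C3b, gave 116 and 62.4, a ratio of 0.71 that was 0.37 with normexp. Itgax, the alpha chain that joins Itgb2 in complement receptor 4, gave 626 and 618 by its measured probe, a ratio of -0.16. Itgax, Itgb2 and Vsig4 were chosen after their values were seen. The 8 receptor genes measured on both arrays had a median of 0.16 and ran down to C5ar2.

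**Figure D3:**
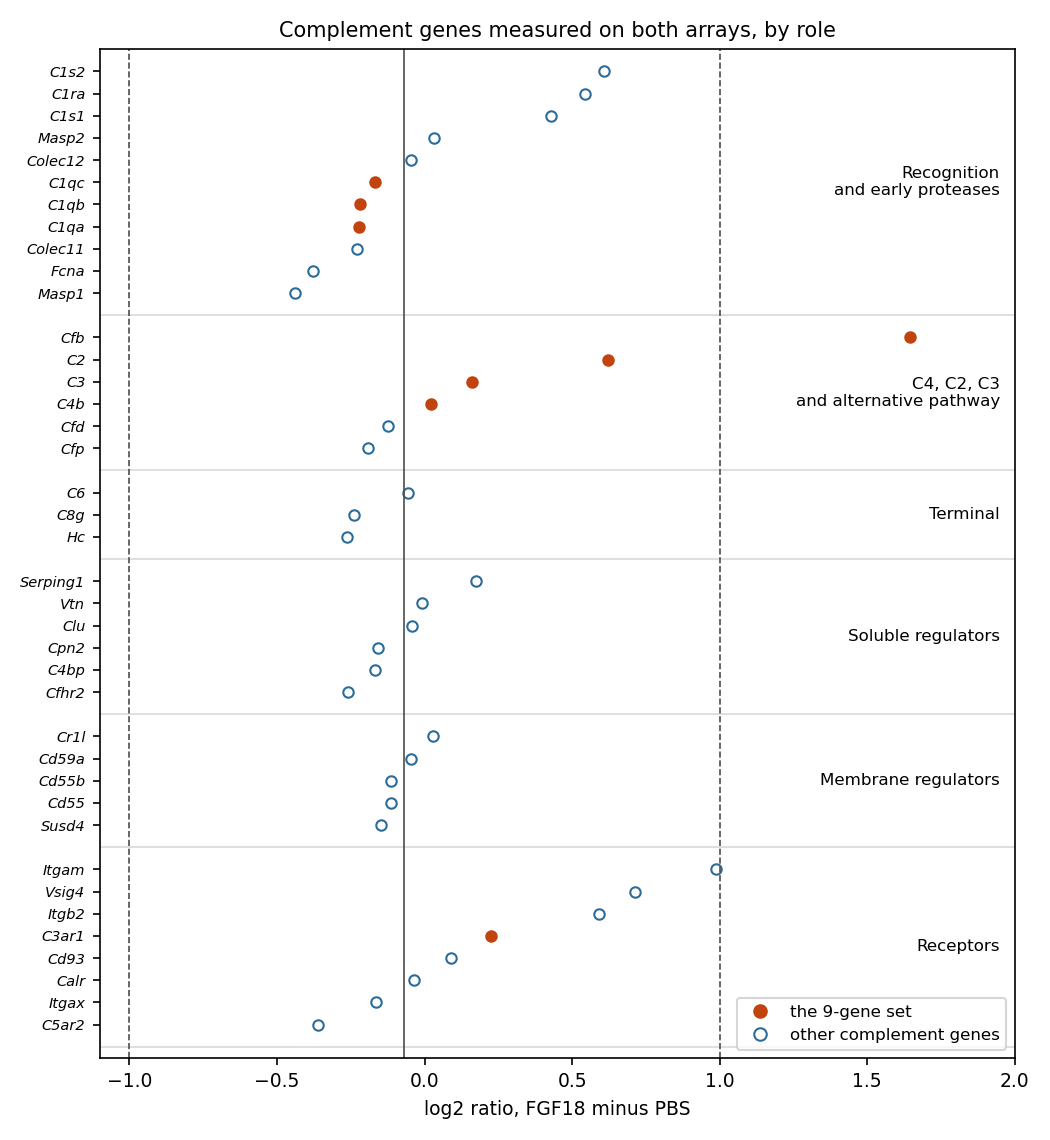
Scaled log2 ratio, FGF18 minus PBS, of complement genes measured on both arrays, grouped by role, with 1 gene left out; filled circles are members, open circles the other genes, the solid line is the median of all genes and the dashed lines are 2-fold. Cfb at 1.65 is the 1 gene beyond 2-fold, Itgam at 0.99 lies just inside it, and the terminal and regulator genes shown lie between the dashed lines.

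Markers of other cell types were set beside these values. In whole skin fewer cells of a type and less RNA per cell cannot be told apart. Of 16 macrophage markers, 15 were named on the array and all 15 were measured on both, with a median ratio of 0.14, 3 at least 2-fold higher and 0 lower. Itgam is in both the macrophage and the complement list. Fcgr1, an Fc receptor gene, was the highest at 2.72 and Mrc1, the mannose receptor of resident macrophages, the lowest at -0.70. Their summed signal, taking the brightest probe of each gene, was 111866 with FGF18 and 104163 with PBS, -0.08 on the scaled log2 scale. Most of that sum was Lyz2, a lysozyme gene, at 73600 and 81400, and without Lyz2 the sums were 38266 and 22763, 0.57 on the scaled log2 scale. The largest gaps in the sum without Lyz2 were those of Fcgr1 (11900 and 1740) and Aif1 (7870 and 2470). Aif1, another marker of the list, was chosen after its values were seen. The list did not rise as a whole: Csf1r, Lyz2, Mrc1, Cd163, Cd14, Mertk and Folr2 had ratios below 0, and 8 of the 15 lay above the median of all genes. Those 8 were Fcgr1, Aif1 and Msr1 (1.55), all past 2-fold, and Itgam, Ccr2 (0.66), Cd68, Lyve1 and Adgre1. The part of macrophage numbers in the C1q, C3ar1 and receptor values was not tested.

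Of 12 neutrophil markers, 6 were measured on both arrays, from Cxcr2 at -0.61 to S100a8 at 1.82, with a median of -0.11. The summed signal of the list was 3589 with FGF18 and 2805 with PBS, 0.17 on the scaled log2 scale. Without its brightest gene, S100a9, it was 0.82, and much of the signal left was S100a8, at 986 with FGF18 and 246 with PBS. The granule genes Elane, Retnlg, Ngp and Ltf were not well above background on either array. The T and NK cell list had 7 of 10 genes measured on both, with a median of -0.29 and 2 of them at least 2-fold higher. It ran from Cd4, the co-receptor of helper T cells, at -0.68 to Prf1, the gene of perforin, at 1.74. The T cell genes Cd3e, Cd3d and Cd3g also lay below 0, at -0.45, -0.29 and -0.49. The other genes measured on both, Klrk1 and Nkg7, lay above 0, at 1.41 and 0.83. Ncr1 and Klrb1c, NK cell receptor genes, were seen with FGF18 only. They were at least 3.90-fold and 1.63-fold higher, with their FGF18 signals taken as exact. The part of these cells in the complement values was not tested.

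In the lists of keratinocyte, fibroblast, dendritic, mast, B, endothelial and adipocyte genes, 0 were past 2-fold in either direction. The 7 keratinocyte genes had a median of -0.06, from Krt10, a keratin of the upper epidermis, at -0.39 to Krt14, a keratin of its basal layer, at 0.02. The 7 fibroblast genes had a median of -0.35, from the collagen gene Col1a2 at -0.75 to the matrix gene Dpt at -0.11. Each of the 7 fibroblast genes thus lay below the median of all genes. Dendritic and Langerhans cell genes (8 of 8 measured) had a median of -0.11, from Cd207, the Langerhans cell lectin langerin, at -0.74 to Zbtb46, a dendritic cell transcription factor, at 0.28. Mast cell genes ran from the tryptase Tpsb2 at -0.35 to the IgE receptor chain Fcer1a at 0.12, with Ms4a2 not well above background. B cell genes were scarce: Cd79b, a chain of the B cell receptor complex, had 0.28, and Ms4a1 and Cd79a were not well above background. Endothelial genes ran from the angiopoietin receptor Tek at -0.12 to the VEGF receptor Kdr at 0.58, and adipocyte genes from adiponectin (Adipoq) at -0.11 to resistin (Retn) at 0.35.

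Defining liver transcripts were at or near background: Apoa1, Ttr and Apob were not well above background on either array, and Alb, the albumin gene, gave 78.0 with FGF18 and 64.8 with PBS, a ratio of 0.09.

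Interferon response genes had high ratios as a list: all 22 were measured on both, 15 were at least 2-fold higher, 0 were lower, and the median was 2.16. Rsad2, an antiviral enzyme gene, was the highest at 3.41 and Socs1, a feedback inhibitor of cytokine signalling, the lowest at 0.09. Their summed signal was 153060 with FGF18 and 39065 with PBS, or 124560 and 36305 without the brightest gene, Ifit3. Acute phase and NF-kB target genes had a median of 0.13 over 13 measured on both, 2 of them at least 2-fold higher: Saa3, an acute phase gene, at 3.65 and Ccl2, a monocyte-attracting chemokine gene, at 2.30. Orm1, another acute phase gene, was the lowest at -0.46, and Il6 was not well above background. The part of interferon or acute phase signalling in the ratios of Cfb and C2 was not tested.

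**Figure D4:**
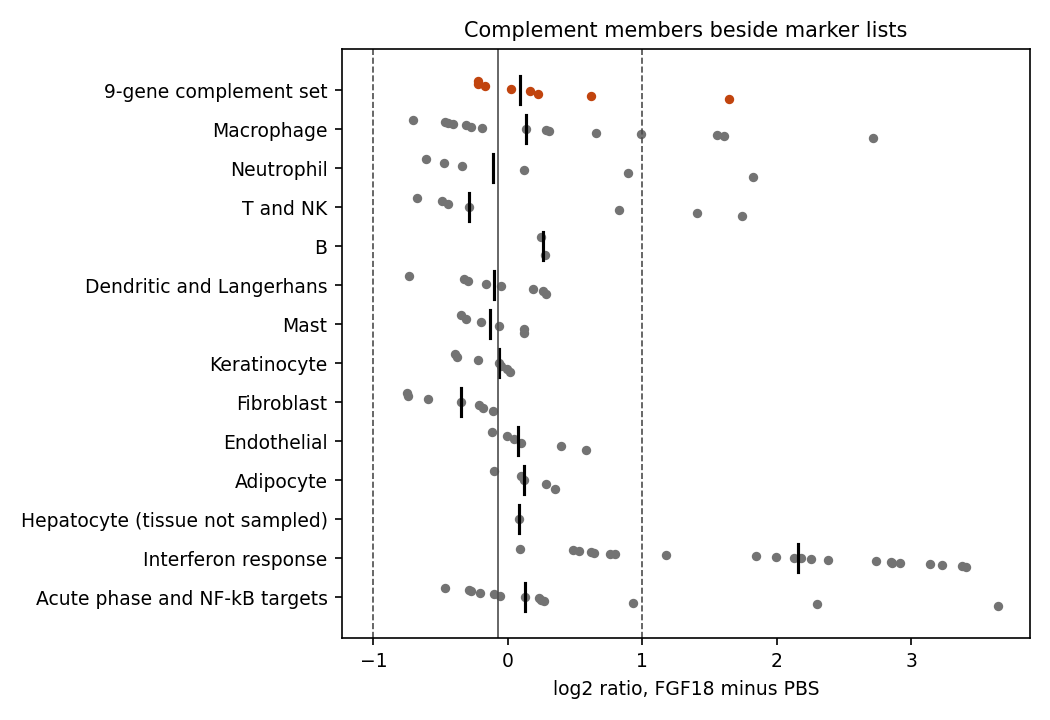
Scaled log2 ratio, FGF18 minus PBS, of the 8 complement members and of the genes in each marker list measured on both arrays, 1 point per gene; thick ticks are list medians, the solid line is the median of all genes and the dashed lines are 2-fold. The interferon list has a median of 2.16, whereas the complement members have a median of 0.09 and the other lists have medians from -0.35 to 0.26.

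The ratio of Cfb stayed at 2-fold or more in 13 of 13 other processing settings, between 1.62 and 1.83 on the log2 scale, and that of C2 lay between 0.55 and 0.80. The C1q ratios ran from -0.22 to 0.01, that of C4b from 0.02 to 0.20 and that of C3ar1, over 12 settings, from 0.03 to 0.55. A scaling to the spike-in controls, chosen after seeing the data, moved all ratios up by 0.79 and gave 0.57 for C1qa, 0.57 for C1qb and 0.62 for C1qc, so the sign of the C1q ratios flips there. C3 turned to -0.01 where its dim probe was averaged in.

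**Figure D5:**
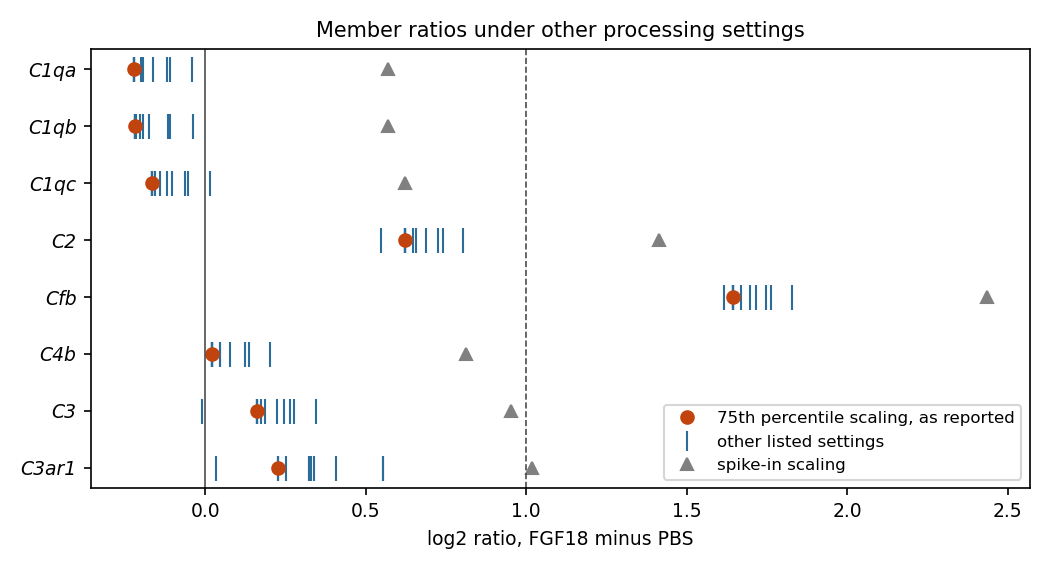
Log2 ratio, FGF18 minus PBS, of the 8 members measured on both arrays under the reported scaling (circles), the other listed settings (ticks) and the spike-in scaling (triangles); the solid line is 0 and the dashed line 2-fold. Cfb lies beyond the dashed line at 1.62 or more in each setting shown, while the C1q chains lie near 0 except with the spike-in scaling.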

How the data were processed

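Per the file headers, both arrays (design 014868) were quantified by Feature Extraction 9.5.3.1 (Agilent; protocol GE1-v5_95_Feb07). The deposited intensity columns used were the background-subtracted processed signal and its error, with the spot mean and background for one alternative; other deposited columns, per the file headers, were flags, spot types and probe names. The authors' series value table holds a ratio: by comparison with the scanner files, the processed signal over each array's median (83.8 and 80.0), within 0.0078 on the log2 scale; any further scaling is not stated in these sources.

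From 43379 probe spots per array, spots flagged as outliers on either array were left out, spots of a probe were averaged, and log2 signal minus the array's 75th percentile was taken. A probe was measured if 0.5 or more of its spots were well above background; probes of a gene were averaged. Single-array values, called bounds, were set against the higher of the dim value and the array's floor. They are lower limits only where the floor was the higher and the measured signal is taken as exact. Of 41165 probes, 23374 were named by accession through a RefSeq table (GRCm38.p6), 6733 by symbol and 2907 by synonym; the other 8160 have the name in the files. 0 sample columns were unmapped. R 4.3.3 with limma 3.58.1, Python 3.11.15 and pandas 2.3.3 were used; the ratio computation was tested on simulated data. With 1 array per group there is no test, and precision is limited by the 2 arrays.

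The members, the gene lists and the settings were chosen with earlier results of these data known. All 9 members were named, together with other complement genes past 2-fold or with a bound of 2-fold, the highest and lowest other gene of each role, and the highest, lowest and undetected genes of each marker list; some genes that this takes are not reported here. Alternatives were other scalings, the series value table, normexp correction (offset 50), filters on dim probes, the brightest or median probe, saturated spots left out, and folds of 1.5 and 3; a spike-in scaling was added.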

Additional observations from a re-analysis of the deposited data

How the results depend on the processing

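There were 15 alternative settings listed and 1 added after seeing the data. Cfb, the 1 complement gene past 2-fold, kept its sign in each; genes with ratios near 0 did not, such as C1qc (same sign in 12 of 13 settings) and C6, Calr, Clu and Vtn (8 of 13 each). The count of members at least 2-fold higher was 1 (Cfb) and became 2 at a fold of 1.5 and 3 with the added spike-in scaling to 8 E1A probes, which moved the median of all genes by 0.79 and put 14.6% of them at least 2-fold higher. The count of members at least 2-fold lower was 0, where 0.987% of all genes were. It became 1 with probes measured on at least 1 array (1.84% of all genes) and 1 without a filter on dim probes (3.25%). In the wider complement list the count at least 2-fold higher was 1, where 1.54% of all genes were. It became 2 with loess (1.71% of all genes), quantile normalization (1.66%), scaling to the median (1.75%) or no scaling (2.02%). It was also 2 with the 75th percentile of detected probes (1.61%), the series value table (1.78%) or no filter (2.86%). At a fold of 1.5, which 3.79% of all genes passed, it was 6, and with the spike-in scaling it was 9 of 40 (14.6% of all genes). The count at least 2-fold lower in that list was 0 and became 2 with probes measured on at least 1 array (1.84% of all genes) and 3 without a filter (3.25%). The median of all genes moved by more than 0.1 with median scaling (0.10), no scaling (0.18), the value table (0.11) and no filter (-0.11). Other scalings raised the share of higher genes among all genes past 2-fold from 61.0% to between 64.1% and 78.5%, and to 98.9% with the spike-in scaling. No paired analysis was possible because each group has 1 array, and no replicate could be left out for the same reason. Leaving out saturated spots changed nothing, since none was saturated. Signals near background limit C3ar1 and C5ar1.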
